A study of Mus musculus with 40 samples.

Results

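The step from postnatal day (P) 21 to P28 under light was followed in astrocytes of the mouse primary visual cortex (V1) that had been given Cre recombinase against the glucocorticoid receptor (GR). The comparison set the 3 P28 NR GR-KO libraries against the 3 P21 NR GR-KO libraries, 6 of the 40 libraries of the series, and covered all 17106 genes that passed the filter on low counts, of 25239 in the table. NR stands for normal rearing with light and DR for dark rearing. All mice of the series were GR fl/fl and received, around birth, an adeno-associated virus whose GfaABC1D promoter drives expression in astrocytes. In GR-KO mice this virus carried Cre and in GR-Con mice an inactive ΔCre, both with a nuclear-envelope EGFP tag by which nuclei were sorted, so the GR-Con libraries carry the floxed alleles and a virus as well. Groups used beside the main comparison were P14 NR GR-KO (n = 3), P21 and P28 NR GR-Con (n = 3 each) and P21 and P28 DR GR-KO (n = 4 each). P21 and P28 DR GR-Con (n = 4 each) were used for 1 sum. For the definition of gene sets, P14 NR GR-Con (n = 3) and P21 DR GR-Con were used. Alternative definitions of the sets also drew on P14 DR GR-Con (n = 3) and P28 DR GR-Con. Each replicate was a pool of 1 male and 1 female mouse.

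GR, encoded by Nr3c1, is a nuclear receptor that binds corticosterone in the mouse and then acts as a transcription factor. In astrocytes it is known to induce genes such as Fkbp5, Tsc22d3 and Hif3a. Astrocytes of the mouse visual cortex go on changing their gene expression for weeks after eye opening, in the window when ocular dominance can be shifted by closing an eye.

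Nr3c1 (chromosome 18) measured 287, 249 and 269 CPM (counts-per-million of a library, with TMM scaling) at P21 and 294, 309 and 250 CPM at P28. The ranges overlap, and the log2 fold change of P28 over P21 was 0.08 (SE 0.09, adjusted p = 0.749, edgeR quasi-likelihood F test). The NR GR-Con libraries lay between 216 and 241 CPM. Counts were taken over the whole gene body, exons and introns together, so this value does not measure recombination of the floxed alleles. The mineralocorticoid receptor Nr3c2 and the GR-induced genes of this paragraph were looked up after their values were seen. Hif3a stood at 21.9 to 30.2 CPM at P21 and 21.9 to 23.1 CPM at P28 in NR GR-KO, against 212 to 241 and 103 to 191 CPM in NR GR-Con. Etnppl, a phospholyase gene of mature astrocytes, stood at 2.77 to 5.07 and 3.88 to 4.24 CPM in NR GR-KO, against 114 to 154 and 70.0 to 135 CPM in NR GR-Con. Neither gene overlapped between genotypes at either age. Nr3c2 was at 505, 304 and 340 CPM at P21 and 446, 507 and 322 CPM at P28.

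Depth differed with age. The P21 NR GR-KO libraries held 28137389, 23285828 and 19049254 counts and the P28 NR GR-KO libraries 44292991, 48844115 and 38884987 counts. All 6 P21 NR libraries, of both genotypes, held 17240294 to 28137389 counts and stood below the other 34 libraries of the series, which held 29500264 to 49221787, so depth and age cannot be told apart in this step. With every library thinned to 1 depth, an alternative chosen after seeing the data, 394 genes were called in place of 469, of which 350 were shared. No label gives a sequencing batch. Summed CPM of 25 astrocyte identity genes was 20809 to 27397 at P21 and 21242 to 26908 at P28. Markers of other cells were also present, with summed levels at P21 and P28 of 2603 to 4205 and 3291 to 4208 CPM for 16 neuronal genes, 783 to 1139 and 953 to 1151 CPM for 14 oligodendrocyte genes, 54.0 to 73.1 and 59.8 to 78.7 CPM for microglial genes, and 164 to 197 and 206 to 229 CPM for 18 vascular and mural genes. The sum of oligodendrocyte precursor genes was 115 to 119 CPM at P21 and 126 to 169 CPM at P28. Of these the vascular and mural sums and the oligodendrocyte precursor sums did not overlap between the ages. Nor did the share of counts from the ribosomal RNA gene Rn45s, 1.57 to 1.86% at P21 and 2.30 to 2.77% at P28, or from the nuclear RNA Malat1, 4.46 to 5.11% and 3.66 to 4.36%. The part of these shares in the results was not tested. In pooled nuclei, fewer cells of a type and less RNA per cell cannot be told apart.

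From P21 to P28, 273 genes rose and 196 fell, 1.60% and 1.15% of the genes tested, counting a gene as changed where its adjusted p was below 0.05 and its log2 fold change lay beyond 0.3 in either direction. Replicates did not overlap for 267 of the 273 and for 189 of the 196, and for 2905 of all 17106 genes tested. Among the genes that fell, those induced by interferon stood at the head of the list: Mx1, Oasl2, Ifit1 and Ddx60 had the largest falls by the rule for named genes. Among the genes that rose were the transcription factor genes St18 and Nr4a1, the kinase gene Sik1, the synaptic scaffold gene Homer1 and endothelial genes such as Slco1a4. Genes that rose were long, with a median gene body of 88.0 kb, against 25.7 kb for genes that fell and 24.1 kb for all genes tested. The slope of log2 level on gene length, per 10-fold length, was 0.150, −0.003 and −0.029 in the P21 libraries and 0.150, 0.226 and −0.059 in the P28 libraries and overlapped between the ages. With this slope as a covariate 990 genes were called in place of 469. The median log2 fold change of all genes was 0.0045. Leaving out 1 library moved the count of 469 calls by more than 1.5 times in 4 of 6 cases: 206 genes were called without P21 replicate 1, 229 without P21 replicate 3, 167 without P28 replicate 1 and 135 without P28 replicate 2.

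Interferons are secreted antiviral proteins that signal through kinases of the JAK family to a transcription factor complex that includes STAT2 and IRF9. This complex binds the interferon-stimulated response element (ISRE) in the promoters of target genes, whose products detect viral RNA, block its translation or tag viral proteins. RefSeq promoters (GRCm38.p6, 250 bases before to 50 after each start) were searched on both strands for an ISRE-like core, GAAA followed by any 2 bases and GAAA again, whose hits may overlap one another. The 6 stretches below come from genes named here that fell and hold a match, were chosen for that match, and show the letters that were counted. They are printed in the direction of the gene, 5′ to 3′, with the matches in capitals (TTTC, any 2 bases and TTTC where the match is on the other strand).
Ifit1, chr19:34640765-34640814, plus strand: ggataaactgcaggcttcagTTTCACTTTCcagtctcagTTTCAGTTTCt
Rsad2, chr12:26456543-26456592, minus strand: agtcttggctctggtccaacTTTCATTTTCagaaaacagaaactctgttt
Stat2, chr10:128270256-128270305, plus strand: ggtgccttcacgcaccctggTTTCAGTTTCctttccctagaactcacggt
Irgm1, chr11:48871421-48871470, minus strand: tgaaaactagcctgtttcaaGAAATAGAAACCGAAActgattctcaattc
Ddx60, chr8:61928014-61928063, plus strand: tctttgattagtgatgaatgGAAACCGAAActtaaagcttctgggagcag
Gbp3, chr3:142559979-142560028, plus strand: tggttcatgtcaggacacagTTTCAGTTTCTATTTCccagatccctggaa
The first match began 104, 120, 222, 30, 53 and 45 bases before the start in these genes. Of the 12 list members that fell, 10 had a promoter in the table and 7 of these held the motif, while Oasl2 and Ifi44 had a promoter without a match. Of all 32851 promoters in the table, 1131 (3.44%) held the motif, and of the 13435 tested genes with a promoter there, 486 (3.62%) did. Among genes that fell, 25 of the 152 with a promoter (16.4%) held it, against 13 of the 197 (6.60%) among genes that rose. A match is a run of letters and not a measured binding site.

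The interferon list held 18 genes, of which 17 were tested. From P21 to P28 in NR GR-KO, 12 of the 17 fell and 0 rose, beside 1.15% of all genes that fell, and the median log2 fold change of the list was −0.93 beside 0.0045 for all genes. Ifit1, whose product binds viral RNA caps, measured 5.53, 10.2 and 3.42 CPM at P21 and 1.00, 0.766 and 1.29 CPM at P28. All 3 P28 libraries lay below all 3 P21 libraries, with a log2 fold change of −2.66 (SE 0.48, adjusted p = 0.00263); 100% of the Ifit1 gene body is overlapped by another annotated gene, so its reads may be shared. Rsad2, encoding the antiviral enzyme viperin, fell from 4.52, 6.94 and 1.92 CPM to 0.564, 0.650 and 1.01 CPM (log2 fold change −2.60, SE 0.45, adjusted p = 0.00243), again without overlap. Oasl2, of the oligoadenylate synthetase family, fell from 7.83, 14.5 and 6.14 CPM to 1.27, 1.09 and 1.77 CPM (log2 fold change −2.79, SE 0.55, adjusted p = 0.00448). Usp18, a protease that removes the ubiquitin-like protein ISG15 and restrains interferon signalling, fell from 5.57, 13.1 and 6.03 CPM to 1.96, 2.58 and 2.48 CPM (log2 fold change −1.82, SE 0.35, adjusted p = 0.00425; 62.9% of its gene body is overlapped). In each of these 4 genes P21 replicate 2 was the highest library.

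The signalling genes moved less in fold and from higher levels. Stat2 fell from 35.1, 32.4 and 28.9 CPM to 23.1, 17.8 and 16.0 CPM (log2 fold change −0.76, SE 0.14, adjusted p = 0.00378). Irf9, its DNA-binding partner (chosen after its values were seen, as were the other list members named in this paragraph), fell from 13.1, 16.4 and 14.9 CPM to 8.04, 7.29 and 9.85 CPM (log2 fold change −0.82, adjusted p = 0.0130). Neither gene overlapped between ages. The RNA sensor genes Ddx58 (RIG-I) and Ifih1 (MDA5) fell by 0.74 and 0.86 on the log2 scale, and Ifit3, Bst2 and Ifi44 by 1.53, 2.49 and 3.96. The members that did not pass were Ifit2 (−0.34), H2-D1 (−0.36), H2-K1 (0.05), Isg15 (−0.28, adjusted p = 0.869) and Irf7 (−1.30, adjusted p = 0.0635). H2-K1 and H2-D1 encode class I histocompatibility chains.

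Outside the list, the genes with the largest falls included further interferon-induced genes. Mx1 and Mx2, neighbouring genes for dynamin-like antiviral GTPases, fell from 2.10, 10.9 and 2.46 CPM to 0.147, 0.0929 and 0.455 CPM (log2 fold change −4.48, SE 0.86, adjusted p = 0.00415) and from 16.8, 30.3 and 15.9 CPM to 5.86, 4.69 and 5.51 CPM (−1.98, SE 0.34, adjusted p = 0.00243). Ddx60, a helicase gene of the RIG-I pathway, fell from 21.3, 29.5 and 23.6 CPM to 4.34, 4.32 and 4.47 CPM (log2 fold change −2.50, SE 0.45, adjusted p = 0.00245). The 3 P28 values of Ddx60 lay close together. Parp14, encoding an ADP-ribosyltransferase, fell from 10.5, 16.0 and 9.51 CPM to 3.24, 3.74 and 3.74 CPM (log2 fold change −1.75, SE 0.28, adjusted p = 0.00093). Irgm1, an immunity-related GTPase gene, fell from 11.6, 13.5 and 10.9 CPM to 5.34, 5.18 and 6.87 CPM (log2 fold change −1.05, SE 0.16, adjusted p = 0.000927). The guanylate-binding protein genes Gbp3 and Gbp6 fell by 1.70 and 1.67, and Xaf1, encoding a pro-apoptotic factor, by 1.97 on the log2 scale. The call of Gbp6 was lost without P21 replicate 2, P28 replicate 1 or P28 replicate 2 (largest adjusted p = 0.0973), and that of Xaf1 without P28 replicate 2 (adjusted p = 0.0716).

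**Figure D1:**
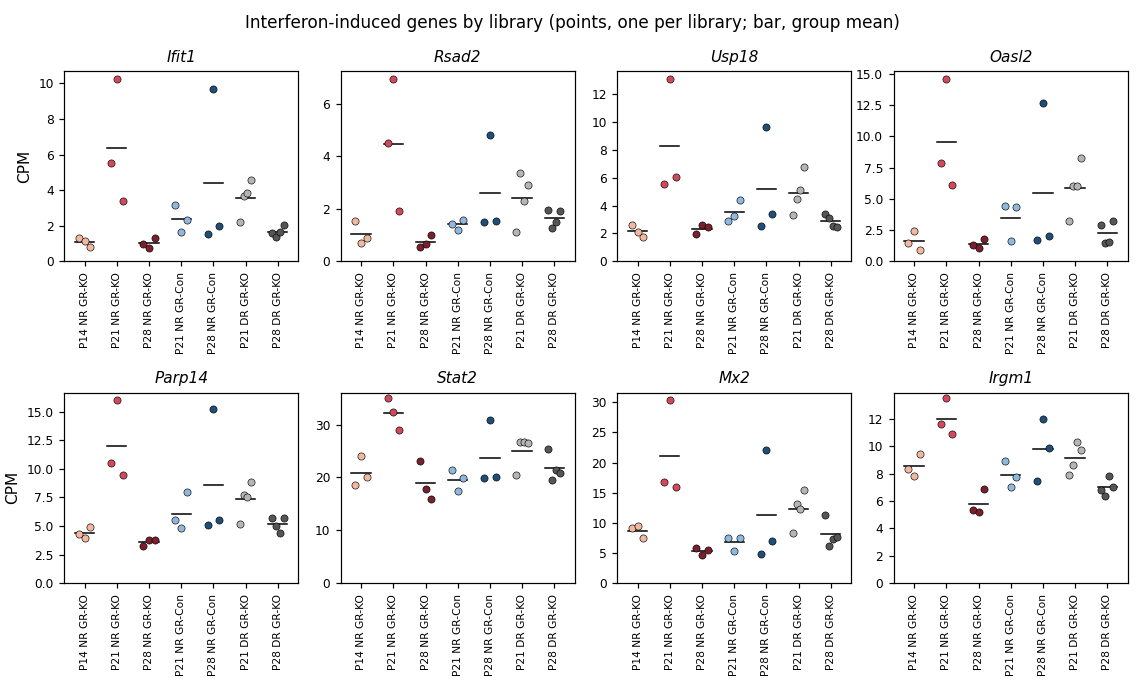
CPM of 8 interferon-induced genes in each library of 7 groups, with 1 point per library and a bar at the group mean. In all 8 genes the 3 P21 NR GR-KO points lie above the 3 P28 NR GR-KO points, and replicate 2 is the highest P28 NR GR-Con library in each.

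The summed level of the 12 list members that fell was 85.4, 95.4 and 83.1 CPM at P14, 164, 234 and 151 CPM at P21 and 89.3, 86.5 and 89.5 CPM at P28 in NR GR-KO. These 12 were chosen for their fall, which sets P21 above P28; summed over all 17 members tested, P21 held 184, 260 and 169 CPM and P28 held 104, 103 and 109 CPM. P21 replicate 2 had the highest value for 11 of the 12 genes. Between P14 and P21, in a comparison that shares the P21 libraries, 11 of the 17 list members rose, beside 5.22% of all genes that rose and 4.82% that fell in that step, with a list median of 1.01. In P21 DR GR-KO the sum of the 12 was 99.2 to 156 CPM and in P28 DR GR-KO 90.3 to 114 CPM. In DR GR-Con, where GR is intact, it was 118 to 138 CPM at P21 and 95.5 to 114 CPM at P28, without overlap. In NR GR-Con it was 113, 86.4 and 110 CPM at P21 and 88.9, 217 and 106 CPM at P28, where replicate 2 had the highest value for 12 of the 12 genes. The number of list members called lower in NR GR-KO was 5 without P28 replicate 1, 6 without P28 replicate 2, 6 without P21 replicate 2 and 11 or 12 without any of the other 3. Microglial marker sums, given above, overlapped between the ages. Their part in the interferon result was not tested.

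Further genes that fell lie outside these groups. Anxa2, encoding a calcium-dependent membrane-binding annexin, fell from 13.9, 11.2 and 10.9 CPM to 4.66, 5.62 and 4.93 CPM (log2 fold change −1.25, SE 0.17, adjusted p = 0.000138). It stood at 10.8 to 12.1 CPM at P14 and at 7.13 to 10.9 CPM in all 6 P21 and P28 NR GR-Con libraries, so the P28 NR GR-KO libraries were the low ones. Rgs9, a regulator of G-protein signalling, fell from 46.1, 47.0 and 47.8 CPM to 34.5, 34.8 and 29.8 CPM (log2 fold change −0.51, SE 0.08, adjusted p = 0.00172). In DR GR-KO it fell by a like amount, from 45.9 to 51.6 CPM at P21 to 35.6 to 36.5 CPM at P28 (log2 fold change −0.42, adjusted p = 0.0015). Nudt1, which clears oxidised nucleotides, fell from 7.52, 7.27 and 6.41 CPM to 4.31, 4.46 and 3.61 CPM (log2 fold change −0.78, adjusted p = 0.00354). Cd109 fell by 1.64 (adjusted p = 0.0347) and the transcript C230072F16Rik by 2.03 (adjusted p = 0.0477) on the log2 scale. C230072F16Rik stood at 13.3 CPM in P21 replicate 1 and at 2.93 and 2.08 CPM in the other P21 libraries, and its call, like that of Cd109, was lost without P21 replicate 1 or any 1 of the P28 libraries.

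Lars2 and Il31ra fell as well, but their P21 values set the P21 NR libraries apart in both genotypes. Lars2, the mitochondrial leucyl-tRNA synthetase gene, fell from 127, 150 and 122 CPM to 71.3, 72.6 and 63.5 CPM in NR GR-KO (log2 fold change −0.94, SE 0.13, adjusted p = 0.000138). In NR GR-Con it went from 157, 143 and 151 CPM to 82.3, 54.8 and 52.8 CPM (log2 fold change −1.25). Il31ra, a cytokine receptor gene, fell from 53.9, 76.7 and 57.6 CPM to 27.1, 31.3 and 23.5 CPM (log2 fold change −1.20, SE 0.21, adjusted p = 0.00243), and by 1.55 in NR GR-Con. The 6 P21 NR libraries held 122 to 157 CPM of Lars2 and 53.9 to 84.0 CPM of Il31ra, and the other 34 libraries, P14 included, 52.8 to 101 and 20.0 to 48.1 CPM. Ubb-ps, a processed pseudogene of the ubiquitin gene Ubb, did the opposite. It measured 1.25, 3.18 and 2.03 CPM at P21 and 11.7, 10.1 and 15.7 CPM at P28 (log2 fold change 2.54, SE 0.29, adjusted p = 5.25e-06), against 8.11 to 18.3 CPM in the 34 libraries outside P21 NR. Ubb itself, looked up after its values were seen, had a log2 fold change of 0.14 (adjusted p = 0.838), and reads of a pseudogene and its parent can be split uncertainly. Over all genes tested, 10 had the 6 P21 NR libraries wholly outside the range of the other 34, of which 6 were among the genes called here. With all libraries thinned to 1 depth the log2 fold changes were 2.51 for Ubb-ps, −0.96 for Lars2 and −1.16 for Il31ra, and all 3 genes were still called.

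Genes that rose between P21 and P28 ranged over several functions. St18, a zinc-finger transcription factor gene, rose from 9.47, 5.85 and 7.53 CPM to 29.4, 33.5 and 17 CPM (log2 fold change 1.80, SE 0.38, adjusted p = 0.0078). In DR GR-KO it rose by 1.47 (adjusted p = 0.00804). Igfn1, encoding an immunoglobulin-like and fibronectin type III domain protein, went from 3.16, 5.39 and 3.31 CPM to 11.3, 11 and 11.9 CPM (log2 fold change 1.53, SE 0.30, adjusted p = 0.00431; 30.6% of its gene body is overlapped). At P14 it had been at 0.143 to 0.774 CPM. Adap2, an Arf GTPase-activating protein gene, rose from 2.14, 2.26 and 1.66 CPM to 4.93, 5.44 and 5.56 CPM (log2 fold change 1.38, SE 0.27, adjusted p = 0.00448). Ikzf1, a transcription factor gene of blood cells and microglia, rose from 2.53, 2.42 and 2.30 CPM to 4.85, 8.78 and 4.24 CPM (log2 fold change 1.30, adjusted p = 0.00431), a call that was lost without P28 replicate 2 (adjusted p = 0.0757), as was that of St18 (adjusted p = 0.0515). Zfp804b rose by 1.44 (adjusted p = 0.0130), with P28 values of 36.4, 45.8 and 19.0 CPM, and Ccn1, a secreted matrix protein gene, by 1.36 (adjusted p = 0.0129), with P28 values of 33.0, 33.7 and 13.5 CPM. P28 replicate 3 was the lowest P28 library in St18, Zfp804b and Ccn1, and the calls of the last 2 were lost without P28 replicate 1, without P28 replicate 2, or without P21 replicate 3 (Zfp804b) or replicate 1 (Ccn1).

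Further rises were smaller in fold. Homer1 rose from 136, 211 and 192 CPM to 370, 394 and 290 CPM (log2 fold change 0.97, SE 0.16, adjusted p = 0.00243). Dock10, a guanine nucleotide exchange factor gene, rose from 26.3, 30.4 and 25.3 CPM to 53.2, 52.3 and 43.1 CPM (log2 fold change 0.86, adjusted p = 0.00243). Khdrbs3, which encodes the splicing regulator SLM2, rose from 157, 193 and 162 CPM to 249, 269 and 226 CPM (log2 fold change 0.54, adjusted p = 0.00243). Bin1, a membrane-curvature gene, rose from 74.0, 80.7 and 77.4 CPM to 105, 103 and 101 CPM (log2 fold change 0.41, adjusted p = 0.00243). Jade2, a chromatin scaffold gene, rose from 22.7, 25.1 and 24.4 CPM to 37.2, 35.2 and 41.8 CPM (log2 fold change 0.66, adjusted p = 0.00245), and Lonrf1 from 11.8, 14.3 and 8.97 CPM to 21.9, 20.6 and 21.1 CPM (0.85, adjusted p = 0.00245; 41.8% of its gene body is overlapped). In each of these 6 genes all P28 libraries lay above all P21 libraries, and no call was lost when 1 library was left out.

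**Figure D2:**
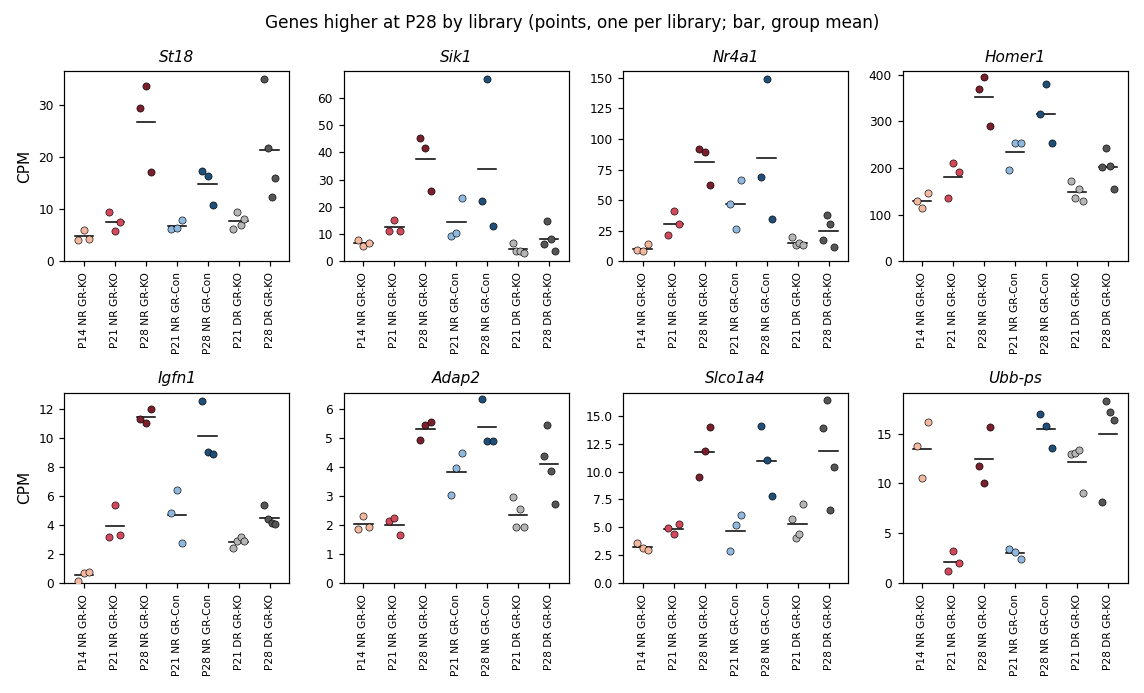
CPM of 8 genes that rose from P21 to P28 in NR GR-KO, in each library of 7 groups, with 1 point per library and a bar at the group mean. All P28 NR GR-KO points lie above the P21 NR GR-KO points; Ubb-ps is lowest in the 6 P21 NR libraries.

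The immediate early list, genes that neurons and glia switch on within minutes of activity, moved upward as a whole but with little support gene by gene. All 18 members had a positive log2 fold change with a median of 0.94, and P28 lay above P21 in every library for 10 of the 18, beside 8.55% of all genes, yet 1 member passed the test. This was Nr4a1, an orphan nuclear receptor gene, which rose from 21.7, 40.9 and 30.2 CPM to 91.4, 89.0 and 62.6 CPM (log2 fold change 1.39, SE 0.36, adjusted p = 0.0275). Sik1, a salt-inducible kinase gene outside the list, rose from 11.1, 15.3 and 11.2 CPM to 45.2, 41.6 and 25.8 CPM (log2 fold change 1.58, SE 0.42, adjusted p = 0.0345). Arc, looked up after its values were seen, was at 58.4, 113 and 115 CPM at P21 and 221, 237 and 242 CPM at P28 (log2 fold change 1.29, adjusted p = 0.106). Summed over the list, P21 libraries held 353, 666 and 541 CPM and P28 libraries 980, 980 and 944 CPM. P21 replicate 1 was the lowest P21 library in 15 of the 18 genes, and it also had the lowest neuronal marker sum, 2603 CPM against 4205 and 3616 CPM. With neuron and oligodendrocyte marker sums as covariates the log2 fold changes of Nr4a1 and Sik1 were 1.37 and 1.54, and both were called. In NR GR-Con the list median was 0.88, with P28 sums of 913, 1612 and 542 CPM. Without P21 replicate 1, P21 replicate 3, P28 replicate 1 or P28 replicate 2 neither Nr4a1 (largest adjusted p = 0.155) nor Sik1 (largest adjusted p = 0.136) passed.

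Cholesterol synthesis genes, by which astrocytes supply lipid to neurons, also leaned upward. Of 24 members, 23 had a positive log2 fold change, with a median of 0.39, and 3 rose (12.5%), beside 1.60% of all genes. Cyp51, a sterol demethylase gene, measured 96.8, 73.5 and 78.7 CPM and 156, 150 and 78.2 CPM (log2 fold change 0.62, adjusted p = 0.0207). Stard4, a sterol transfer gene, passed with 0.65 (adjusted p = 0.0303). The ages overlap in both genes, and P28 replicate 3 was the lowest P28 library in 23 of the 24 members. The list sum was 2885 and 2630 CPM in P28 replicates 1 and 2 and 1537 CPM in replicate 3, against 1576 to 2233 CPM at P21. Without P28 replicate 3 the count rose to 17, and without P21 replicate 2, P21 replicate 3, P28 replicate 1 or P28 replicate 2 both named genes lost their calls.

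Of 20 glucocorticoid-induced genes, 3 rose in NR GR-KO (15%), beside 1.60% of all genes. Sgk1, a kinase gene, rose from 10.6, 17.6 and 11.3 CPM to 21.5, 25.4 and 19.3 CPM (log2 fold change 0.74, adjusted p = 0.0267). Per1, a clock gene, rose from 59.8, 68.1 and 60.0 CPM to 111, 91.0 and 91.0 CPM (log2 fold change 0.64, adjusted p = 0.0294). Gpd1, glycerol-3-phosphate dehydrogenase, was near 1 CPM, and 92.7% of its gene body is overlapped (log2 fold change 1.19, adjusted p = 0.0407). The list median was 0.20, and −0.07 in NR GR-Con. Members that did not pass included Fkbp5 (0.47, adjusted p = 0.615), Tsc22d3 (0.43, adjusted p = 0.243), Zbtb16 (0.54, adjusted p = 0.375) and Hif3a (−0.20, adjusted p = 0.760). These were chosen for mention after their values were seen. With any 1 of the 6 libraries left out, the count of 3 went to between 0 and 2.

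Further lists gave few calls, beside 1.60% of all genes that rose and 1.15% that fell. Among 18 cyclic nucleotide phosphodiesterases, Pde3b rose from 14.1, 16.6 and 16.0 CPM to 25.2, 25.9 and 22.1 CPM (log2 fold change 0.65, adjusted p = 0.00594) and Pde8a from 21, 17.9 and 17.9 CPM to 31.4, 32.9 and 31.7 CPM (0.75, adjusted p = 0.0126), with a list median of 0.24. The call of Pde8a was lost without P21 replicate 3 or P28 replicate 2 (adjusted p at most 0.0604). Hapln4, which links hyaluronan to proteoglycans in perineuronal nets, was the only member of its list of 19 to rise, from 6.78, 6.89 and 9.19 CPM to 13.4, 11.6 and 16.1 CPM (log2 fold change 0.85, adjusted p = 0.0173), and Ppp1r3g, a glycogen-targeting phosphatase subunit gene, the only one of 23 glucose and glycogen genes (0.54, adjusted p = 0.00763; 44.8% overlapped). The call of Ppp1r3g was lost without P21 replicate 1 and that of Hapln4 without P21 replicate 1 or 2 or P28 replicate 1 or 3. Among 25 astrocyte identity genes 1 changed: Ndrg2 fell from 245, 220 and 269 CPM to 185, 176 and 205 CPM (log2 fold change −0.37, adjusted p = 0.0488). The other 24, Gfap and Aqp4 among them, did not pass, and the list median was −0.06. In the reactive astrocyte list Serpina3n, a protease inhibitor gene, fell from 3.90, 2.59 and 2.99 CPM to 1.62, 1.02 and 0.909 CPM (log2 fold change −1.42, adjusted p = 0.0117). Axin2 (−0.35, adjusted p = 0.0412), a target and inhibitor of Wnt signalling, and the basement membrane collagen gene Col4a6 (−0.75, adjusted p = 0.0173) fell, and the ribosomal protein gene Rpl5 rose (0.32, adjusted p = 0.0441). The calls of Ndrg2, Serpina3n, Axin2, Col4a6 and Rpl5 were each lost without 2 or more of the 6 libraries in turn, with largest adjusted p values of 0.225, 0.0837, 0.152, 0.143 and 0.171. Of 20 proliferation genes 0 were called (edgeR, and 0 by DESeq2, with 3 at an unadjusted p below 0.05), with 16 negative and a median of −0.34. In the week before, 13 of the 20 had fallen, beside 4.82% of all genes.

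Of 18 vascular and mural genes, 15 were positive with a median of 0.81, and 4 rose, beside 1.60% of all genes. P28 lay above P21 in every library for 8 of the 18, beside 8.55% of all genes. Flt1, a VEGF receptor gene, measured 6.55, 5.64 and 7.96 CPM at P21 and 12.4, 16.1 and 17 CPM at P28 (log2 fold change 1.18, adjusted p = 0.0386). Slco1a4, an organic anion transporter of the blood-brain barrier, rose from 4.91, 4.39 and 5.29 CPM to 9.51, 11.8 and 14 CPM (log2 fold change 1.28, adjusted p = 0.0427). Pecam1 (0.94) and Myh11 (1.04) also rose, as did, outside the list, the endothelial receptor genes Adgrl4 (1.34, adjusted p = 0.0344) and Adgrf5 (1.33, adjusted p = 0.0362), each of whose calls was lost without any 1 of 5 of the 6 libraries. With any 1 of the 6 libraries left out, the list count of 4 went to 0 or 1, while the log2 fold change of Flt1 stayed between 1.07 and 1.31. Of 13 ependyma and choroid plexus genes, 12 were negative with a median of −1.46, and 2 fell, beside 1.15% of all genes. These were the cilia genes Cfap44 and Cfap43. Cfap44 measured 81.5, 36.4 and 39.8 CPM at P21 and 28.6, 26.9 and 21.3 CPM at P28 (log2 fold change −1.04, adjusted p = 0.00842). Cfap43 measured 18, 5.93 and 3.47 CPM at P21 and 2.84, 3.25 and 3.97 CPM at P28 (log2 fold change −1.46, adjusted p = 0.0192). P21 replicate 1 was the highest P21 library in 12 of the 13, with a list sum of 212 CPM against 74.3 and 68.6 CPM in the other P21 libraries and 42.1 to 53.5 CPM at P28. Without it, 0 of the 13 were called, with adjusted p values of 0.164 for Cfap44 and 0.492 for Cfap43.

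**Figure D3:**
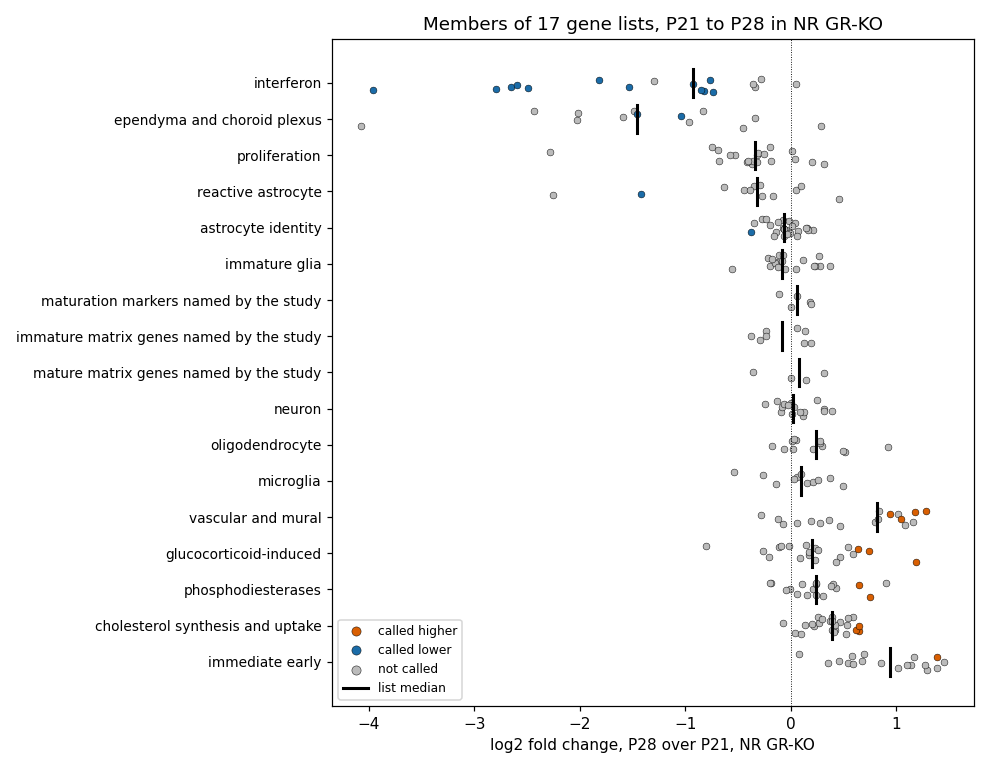
Log2 fold change of P28 over P21 in NR GR-KO for each tested member of 17 gene lists. Points are genes, coloured by call, and black bars are list medians; the interferon list (median −0.93, 12 lower) holds most of the lower calls.

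The change from P21 to P28 was then set beside that of NR GR-Con, which shares no library with it, to ask whether it differed with GR. In NR GR-Con 239 genes rose (1.40%) and 165 fell (0.965%). Of the 273 genes that rose in NR GR-KO, 261 had a positive log2 fold change in NR GR-Con and 41 rose there too, 15% of the NR GR-KO calls and 17.2% of the NR GR-Con calls. Of the 196 that fell, 109 had a negative log2 fold change in NR GR-Con and 16 fell there too, 8.16% and 9.70% of the calls. Across all 17106 genes, which are not independent, the 2 sets of log2 fold changes had a Pearson r of 0.152 and a Spearman rho of 0.226. All 6 P21 NR libraries were of low depth, in both genotypes.

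**Figure D4:**
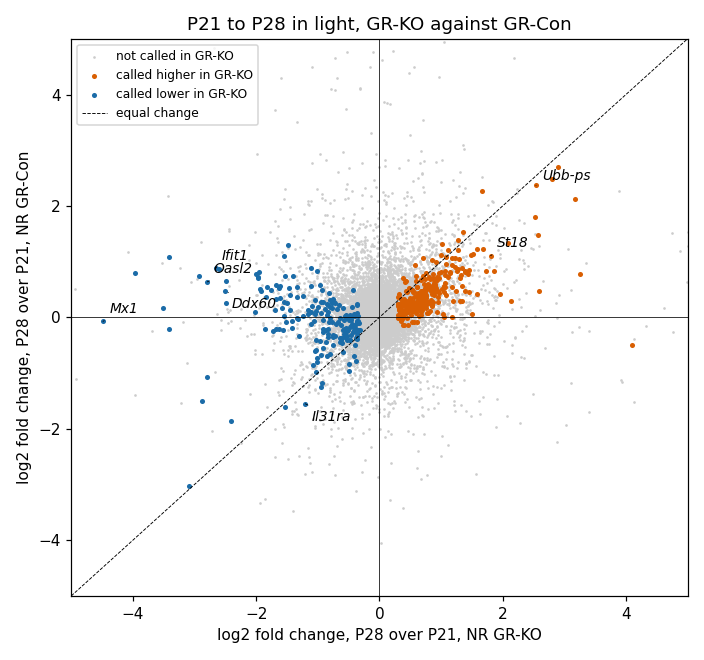
Log2 fold change of P28 over P21 in NR GR-KO (x axis) and NR GR-Con (y axis) for each gene tested, with genes called in NR GR-KO coloured; 39 genes lie outside the axes. Genes that rose in NR GR-KO sit mostly above 0 in NR GR-Con (261 of 273), and genes that fell sit on both sides of 0 (109 of 196 below).

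The difference between the 2 changes passed for 24 genes at an adjusted p below 0.05 (edgeR interaction term): 2 with a more positive change in NR GR-KO (0.0117% of genes tested) and 22 with a more negative one (0.129%). With the groups compared fitted alone 0 passed, and with neuron and oligodendrocyte marker sums as covariates 853 passed, 622 more positive and 231 more negative, so neither the count nor the balance of directions held. Of the 22, 7 were on the interferon list. For Ifit1 the difference was −3.54 (adjusted p = 0.0131): it fell in NR GR-KO, while NR GR-Con had 3.17, 1.63 and 2.35 CPM at P21 and 1.54, 9.68 and 1.99 CPM at P28. Rsad2 differed by −3.47, Ddx60 by −2.97, Mx2 by −2.70, Usp18 by −2.36, Parp14 by −2.24, Irgm1 by −1.36 and Stat2 by −1.03. In each of these 8 genes P28 NR GR-Con replicate 2 was the highest P28 NR GR-Con library. Without that library 1 gene was called in all, and Ifit1 (−2.22, adjusted p = 0.147), Mx2 (−1.77, adjusted p = 0.0871), Parp14 (−1.54, adjusted p = 0.0640) and Irgm1 (−1.18, adjusted p = 0.0640) did not pass. At P21 the NR GR-KO libraries were above all NR GR-Con libraries in each of these 8 genes, for example in Irgm1 (10.9 to 13.5 against 7.03 to 8.92 CPM), Parp14 (9.51 to 16.0 against 4.80 to 7.97 CPM) and Stat2 (28.9 to 35.1 against 17.5 to 21.4 CPM).

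Matrix genes were among the others. Mmp14, a membrane-bound matrix metalloproteinase gene, was at 37.6, 36.8 and 38.8 CPM at P21 and 30.8, 30.5 and 31.0 CPM at P28 in NR GR-KO, and at 17.5, 16.2 and 18.5 CPM and 24.6, 27.5 and 23.7 CPM in NR GR-Con. The 2 changes, −0.29 and 0.54, differed by −0.83 (adjusted p = 0.0131), and the genotypes did not overlap at either age. Fbln2, encoding the matrix protein fibulin-2, fell by 0.43 in NR GR-KO, from 17.3, 19.0 and 15.6 CPM to 13.3, 14.9 and 10.4 CPM, a call lost without any 1 of 4 of the 6 libraries, and rose by 0.49 in NR GR-Con, from 11.6, 13.7 and 12.1 CPM to 16.9, 18.1 and 17.3 CPM (difference −0.92, adjusted p = 0.0131). Anxa2 differed by −1.27 (adjusted p = 0.0133) and Nudt1 by −0.94 (adjusted p = 0.0459), both lower in NR GR-KO with changes of 0.03 and 0.16 in NR GR-Con. In the other direction Stab2, a hyaluronan receptor gene, was at 1.55 to 2.45 CPM at P21 and 2.21 to 2.93 CPM at P28 in NR GR-KO and fell in NR GR-Con from 4.79, 6.54 and 9.35 CPM to 2.88, 2.11 and 2.29 CPM (difference 1.74, adjusted p = 0.010). Spon1, encoding the secreted matrix protein F-spondin, differed by 0.50 (adjusted p = 0.0385), with 66.5, 76.2 and 66.1 CPM going to 63.8, 67.4 and 62.0 CPM in NR GR-KO and 113, 122 and 131 CPM to 75.6, 82.7 and 81.1 CPM in NR GR-Con. Without P28 NR GR-Con replicate 2 the calls of Mmp14, Anxa2, Spon1, Fbln2 and Stab2 were lost too, with adjusted p values of 0.0871 for the first 3, 0.0790 for Fbln2 and 0.0640 for Stab2, while their differences were −0.77, −1.15, 0.53, −0.89 and 1.65. The next genes of positive difference, Rgs7bp (0.54, adjusted p = 0.0604), Atp2b2 (0.58, adjusted p = 0.0725) and Map3k5 (0.70, adjusted p = 0.0851), did not pass.

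Beside DR GR-KO, the same step in darkness, the change differed for 1 gene, Ubb-ps (0.00585% of genes tested; 1177 at an unadjusted p below 0.05, and 25 by the DESeq2 Wald test). Its difference of 2.23 (adjusted p = 0.00677) rests on the P21 NR values given above, since DR GR-KO held 9.09 to 13.4 CPM at P21 and 8.11 to 18.3 CPM at P28, and it did not pass without P21 NR GR-KO replicate 1 (adjusted p = 0.0586). In DR GR-KO 325 genes rose (1.90%) and 236 fell (1.38%). Of the 273 risers under light, 258 had a positive change in darkness and 104 rose there too, 38.1% and 32.0% of the calls of each comparison. Of the 196 fallers, 162 had a negative change and 31 fell there too, 15.8% and 13.1%. Ikzf1 (1.17, adjusted p = 0.00228), Khdrbs3 (0.42, adjusted p = 0.00361), Dock10 (0.74, adjusted p = 0.00162), Jade2 (0.58, adjusted p = 0.00162), Map3k5 (0.53, adjusted p = 0.00354) and Bin1 (0.32, adjusted p = 0.00376) rose in darkness as they did under light. Of the interferon list 0 were called in DR GR-KO (edgeR, with 7 at an unadjusted p below 0.05 and 2 called by DESeq2), with a median of −0.50. Ddx60 fell there (−1.53, adjusted p = 0.0170), as did Gbp6 (−1.23, adjusted p = 0.0334). Across 17106 genes the log2 fold changes under light and in darkness had a Pearson r of 0.280 and a Spearman rho of 0.351. The cholesterol list had a median of 0.00 in darkness, but the difference for Stard4 (0.97, adjusted p = 0.169) did not pass.

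A further question was whether genes that had changed in GR-Con the week before, and that depend on GR, went on moving in GR-KO. Genes called from P14 to P21 in NR GR-Con (1117 higher, 6.53%, and 1218 lower, 7.12%) were crossed with genes called for GR at P21 in darkness (735 higher in GR-KO, 4.30%, and 407 lower, 2.38%). None of the libraries that define these sets belongs to the NR GR-KO comparison. The P21 NR GR-Con libraries among them share the low depth of the P21 NR GR-KO libraries, so the sets are not free of what sets P21 NR apart. Il31ra, a gene apart in the P21 NR libraries as given above, entered the first of the sets below and fell. The 207 genes that rose in NR GR-Con and were lower in dark-reared GR-KO had a median log2 fold change of 0.01 from P21 to P28 in NR GR-KO, and 10 rose (Per1, Ppp1r3g and Jade2 among them) and 6 fell. The 192 genes that fell in NR GR-Con and were higher in dark-reared GR-KO had a median of −0.16, and 0 rose and 16 fell (8.33%), beside 1.15% of all genes that fell and 1.60% that rose. The largest falls among the 16 were in Daw1 (−1.50), Meig1 (−1.49), Vwa3b (−1.42) and Tcea3 (−1.34). In NR GR-KO these had changed by 0.76, 0.86, 0.34 and 0.20 from P14 to P21, a step that shares the P21 libraries. The 192 genes had a median of −0.20 in that step. In DR GR-KO Daw1, Meig1, Vwa3b and Tcea3 changed by −0.18, −0.19, −0.45 and −0.34 from P21 to P28. Ano1 changed alike in light and darkness (−0.99 and −1.01). Without P21 replicate 1 or without P28 replicate 1, 2 of the 192 were called, without P28 replicate 2, 4, and without P28 replicate 3, 9, with set medians between −0.11 and −0.22. The summed ependyma and choroid plexus level given above was highest in P21 replicate 1. Its part in these calls was not tested. All 1117 genes that had risen had a median of 0.05 with 59 higher and 16 lower, and all 1218 that had fallen a median of −0.06 with 14 higher and 46 lower.

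**Figure D5:**
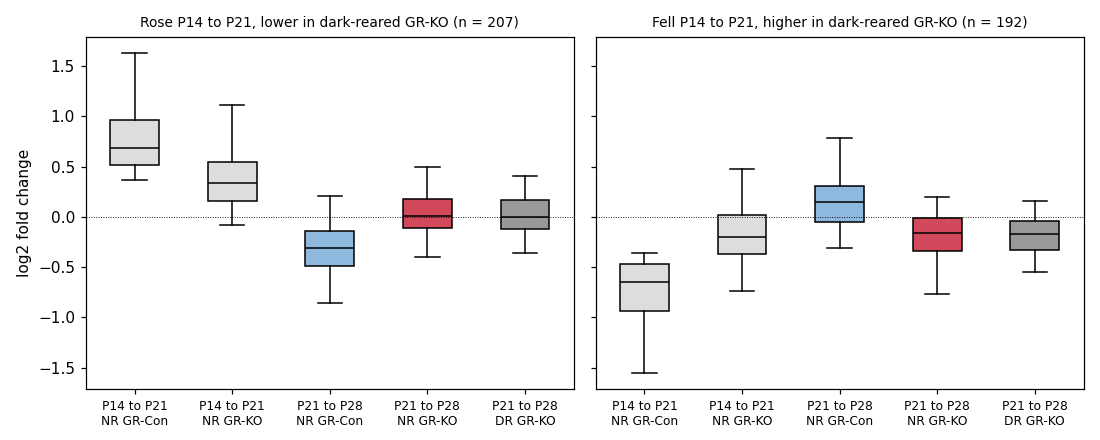
Log2 fold changes of the 207 and the 192 GR-dependent developmental genes in 5 steps. Boxes span the quartiles with the median as a line, and whiskers the 5th to 95th percentiles; in NR GR-KO the medians from P21 to P28 are 0.01 and −0.16, and the P14 to P21 values in NR GR-Con were used to choose the genes.

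In NR GR-Con, whose P21 libraries also define the sets, the same 207 and 192 genes had medians of −0.31 and 0.15 from P21 to P28. The difference between GR-KO and GR-Con over the 207 genes had a median of −0.81 at P21 and −0.43 at P28 under light, and over the 192 genes 0.71 and 0.35. These values share libraries with the steps above and are given as levels of the gap. The 5 maturation markers named by the study, Aldh1a1 (0.19), Ezr (0.19), Fam107a (−0.11), Gjb6 (0.00) and Etnppl (0.06), gave 0 calls in NR GR-KO (edgeR, smallest adjusted p = 0.385, with 0 at an unadjusted p below 0.05 and 0 by DESeq2). Fam107a stood at 227, 246 and 264 CPM at P21 and 232, 229 and 223 CPM at P28, against 375 to 638 CPM in the 6 NR GR-Con libraries, without overlap. Gjb6, encoding connexin 30, stood at 86.6 to 105 and 91.0 to 102 CPM, against 157 to 246 CPM. In the week before, 3 of the 5 had risen in NR GR-KO, beside 5.22% of all genes, with a median of 0.88. Of the 8 immature matrix genes named by the study 0 were called (edgeR, and 0 by DESeq2, with 2 at an unadjusted p below 0.05), with a median of −0.09. Tnc, encoding tenascin-C, was at 720, 581 and 572 CPM at P21 and 513, 531 and 400 CPM at P28 (log2 fold change −0.38, adjusted p = 0.102; 71.4% of its gene body is overlapped). The 4 mature matrix genes had a median of 0.08 with 0 called (0 by DESeq2, with 2 at an unadjusted p below 0.05). The study chose these lists on data that include the 6 libraries, so they are not independent of them.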

How the data were processed

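Counts per gene were used as deposited by the authors, who aligned reads with STAR to mm10 and counted them over gene bodies, exons and introns together, with featureCounts of the Subread package and UCSC refGene annotation. No source used here states the strand setting, so reads of overlapping or antisense genes cannot be told apart. Of 25239 genes, 3732 had no count.

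All 40 libraries entered 1 model of 12 group means in edgeR 4.0.16 (R 4.3.3): filterByExpr, TMM and quasi-likelihood F tests, with Benjamini-Hochberg adjustment over the 17106 genes tested. Age calls needed an adjusted p below 0.05 and an absolute log2 fold change above 0.3, GR calls one above 0.1, and interactions an adjusted p below 0.05. The SE is the size of the log2 fold change divided by the square root of F. The biological coefficient of variation was 0.132. Totals ran from 17240294 to 49221787 counts per library. PCR duplicates were not removed by molecular identifiers here. The p values weigh a difference between groups against the spread between replicate pools, which was estimated over all 40 libraries together.

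The comparison, the gene lists and the sets were chosen with earlier results of these data known. Named genes were Nr3c1, up to 12 called genes per direction with the largest change, at least 5 CPM in a group and no overlap of replicates, 6 more by smallest p, up to 4 called members of each list (2 of smallest p where none was called), up to 8 called genes per direction of each interaction (5 of smallest p where fewer), and genes named by the study. Alternatives were DESeq2 1.42.0 (size factors and Wald test), no filter, the groups compared alone, replicate number as a block, the 20 most abundant genes left out, glmTreat, gene length slope or neuron and oligodendrocyte markers as covariates, each library left out and other set definitions. Thinning to 1 depth, a block over all groups and list counts with each library left out were chosen after seeing the data. Replicates of a group were distinct libraries (chi-square per degree of freedom 7.38 to 144 over 48 pairs). Statistics were tested on simulated data.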

Additional observations from a re-analysis of the deposited data

Results flagged for a closer look

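The change from P21 to P28 differed between NR GR-KO and NR GR-Con, by the interaction term of the edgeR fit, for 14 named genes. The difference was −3.54 for Ifit1, −3.47 for Rsad2, −2.97 for Ddx60, −2.70 for Mx2, −2.36 for Usp18, −2.24 for Parp14, −1.36 for Irgm1 and −1.03 for Stat2, all induced by interferon. It was −1.27 for Anxa2, −0.94 for Nudt1, −0.92 for Fbln2 and −0.83 for Mmp14, and 1.74 for Stab2 and 0.50 for Spon1. Without P28 NR GR-Con replicate 2 a single call was made in this comparison, as given in the report. Between light and darkness the change in GR-KO differed for Ubb-ps, by 2.23. In P21 DR GR-KO, replicate 4 held 9.09 CPM of Ubb-ps, apart from 13.0, 13.0 and 13.4 CPM in the other 3. This gap is past the 95% critical value of Dixon's test for 4 samples, which chance passes in about 1 of 20 groups. The same check was run on further library measures and genes in P21 and P28 DR GR-KO, and only this gap passed, so chance may account for it.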

How the results depend on the processing

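From P21 to P28 in NR GR-KO 469 genes were called. A fold threshold inside the test (glmTreat) called 41, the groups compared alone 66, gene length slope as a covariate 990 and neuron and oligodendrocyte markers as covariates 1028. With 1 library left out the count ran from 135 to 613. The share of higher genes was 58.2%, 36.6% with glmTreat, 39.3% without P21 replicate 3 and 67.5% without P28 replicate 3. Thinned to 1 depth, after seeing the data, 394 were called, of which 350 were shared. For the difference with NR GR-Con (24 genes) the DESeq2 Wald test called 100, the length slope 199, the marker covariates 853 (622 more positive in NR GR-KO), the groups compared alone 0 and the replicate block within age 6, and leaving out 1 library gave 1 to 40. For the difference with darkness (1 gene) the DESeq2 Wald test called 25, the length slope 13, the marker covariates 21 and the groups compared alone 0, and leaving out 1 library gave 0 to 5. Of the interferon list 12 fell, 4 under the fold threshold, 4 with the groups compared alone and 5 to 12 with 1 library left out. Of the 192 developmental genes 16 fell (8.33%), 0 under the fold threshold and 1 with the groups compared alone. The count was 40 with the length slope, 28 with the marker covariates and 2 to 18 with 1 library left out. With GR dependence taken at P28 the set held 68 genes, of which 4 fell (5.88%). With the sets taken from P14 to P21 in DR GR-Con it held 295 genes, of which 11 fell (3.73%). The median was then −0.08 in place of −0.16. The cause of these shifts was not tested. Other settings kept these counts within 1.5 times. Of 65 named called genes 16 kept their call in every alternative run. Replicate number was not used to pair samples in the main fit. P21 and P28 NR GR-KO libraries of the same number had r of 0.341, −0.175 and 0.248. Those of different numbers ran from −0.461 to 0.332. The replicate block within age gave 570 calls in NR GR-KO, of which 432 were shared. Depth limits low genes such as Ifi44 and Gpd1, near or under 1 CPM.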
